A study of Homo sapiens with 32 samples.

Results

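The libraries described here show what auxin did to RNA in tunicamycin-treated cells that have no auxin-degradable protein. They are the 4 libraries of stressed, auxin-treated parental cells set against the 4 of stressed, vehicle-treated parental cells, 8 of the 32 libraries of the series, chosen by their labels alone. All were HCT116 cells, a long-used line from a human colorectal carcinoma, with OsTIR1, a rice auxin receptor protein under a doxycycline-inducible promoter, and no degron tag. Both groups received 200 ng/mL doxycycline for 24 h, 5 µg/mL tunicamycin for 5 h and 250 µM 4-thiouridine (s4U) for 2 h before collection. The auxin group also received 500 µM auxin (indole-3-acetic acid, IAA) for 9 h, and the vehicle group is labelled as its DMSO control. The rest of the series holds unstressed parental cells and cells in which both copies of IGF2BP3, an RNA-binding protein, carry the mAID degron, each with auxin or DMSO. Each library came from 1 well, in 4 replicates, and p-values measure the spread between wells.

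SLAM-seq alkylates the RNA of s4U-fed cells so that s4U is read as a T-to-C conversion, which separates newly made from older RNA. Per gene, 3 readings were used: all reads, those that carried conversions (called labelled), and the percentage of a gene's reads that were labelled. In plants, auxin brings a TIR1 receptor and its target together on a ubiquitin ligase. Animal cells lack this receptor, but indole compounds can bind the aryl hydrocarbon receptor (AhR), a ligand-activated transcription factor that pairs with ARNT and switches on enzymes of xenobiotic metabolism such as CYP1A1 and CYP1B1. Tunicamycin blocks N-glycosylation in the endoplasmic reticulum (ER) and sets off the unfolded protein response, whose branches run through IRE1 and XBP1, PERK and ATF4, and ATF6.

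Auxin replicate 1 stood apart from every other library, so the main results are given with and without it. It held 0.987 M reads in named genes, against 3.32, 3.67 and 3.89 M in auxin replicates 2 to 4 and 4.19 to 6.98 M in the vehicle libraries. Its reads covered 15.1 T positions each, where the other 31 libraries covered 20.3 to 24.1. In all, 7115 genes had a mean of at least 20 CPM (counts scaled to a common library size) over the 32 libraries of the series. In auxin replicate 1, 1407 of these lay over 2-fold above and 1935 over 2-fold below the mean of the other auxin libraries. Auxin replicates 2, 3 and 4, each set against the others without replicate 1, had 0, 17 and 20 such genes.

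**Figure D1:**
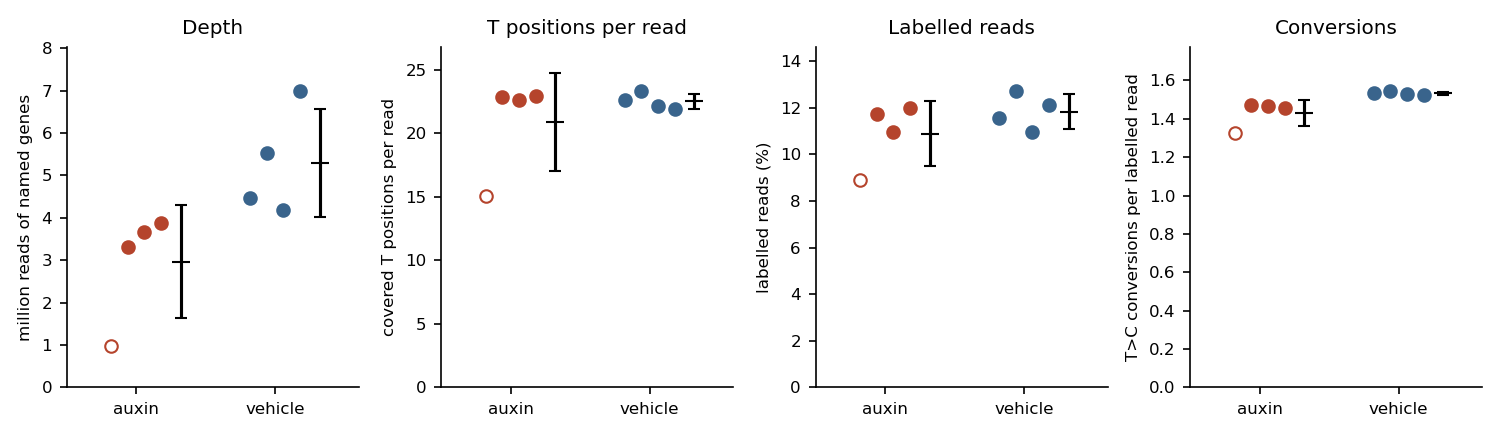
Depth, T positions covered per read, labelled reads and conversions per labelled read of each library (points), with the mean and SD of each group. Auxin replicate 1, the open point, is lowest of the auxin libraries in all 4 panels, and conversions per labelled read do not overlap between the groups.

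ALDH1A3 and CYP1B1 rose with auxin, and no other gene passed the test when all libraries were used. ALDH1A3, which makes retinoic acid from retinaldehyde, averaged 249.7 CPM with auxin and 154.0 CPM with vehicle. CYP1B1, a cytochrome P450 enzyme and textbook AhR target, averaged 40.0 CPM with auxin and 20.4 CPM with vehicle. Both were on the list of 20 AhR genes, which was chosen with earlier results for some of its genes known. NDUFAF4, an assembly factor of mitochondrial complex I, fell once auxin replicate 1 was left out. As these were bulk libraries, a change in the number of cells that make a transcript and a change in its amount per cell cannot be told apart.

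The promoter windows of ALDH1A3 and of CYP1A1, the best known AhR target, are shown because AhR and ARNT are known to bind DNA at the core letters GCGTG. They run from 250 bases before to 50 bases after the gene start, 5′ to 3′ on the gene's strand, from RefSeq on GRCh38.p14: chr15:100879581-100879880, plus strand, for ALDH1A3 and chr15:74725479-74725778, minus strand, for CYP1A1. Capitals mark GCGTG on either strand, that is GCGTG or CACGC as printed.
ALDH1A3: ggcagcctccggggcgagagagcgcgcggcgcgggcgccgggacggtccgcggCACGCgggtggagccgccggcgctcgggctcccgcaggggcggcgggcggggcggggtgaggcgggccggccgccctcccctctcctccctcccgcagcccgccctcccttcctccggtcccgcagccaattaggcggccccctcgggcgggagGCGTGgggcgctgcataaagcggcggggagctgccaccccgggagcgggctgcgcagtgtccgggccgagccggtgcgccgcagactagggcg
CYP1A1: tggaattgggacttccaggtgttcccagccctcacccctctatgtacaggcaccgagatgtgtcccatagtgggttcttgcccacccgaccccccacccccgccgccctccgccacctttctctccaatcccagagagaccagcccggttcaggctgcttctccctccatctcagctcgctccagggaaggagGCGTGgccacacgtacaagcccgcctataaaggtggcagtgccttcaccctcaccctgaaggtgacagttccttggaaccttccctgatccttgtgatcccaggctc

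The ALDH1A3 window holds the motif at 2 places and the CYP1A1 window at 1. Of all 35116 windows of the same length in the RefSeq table, 36.5% hold at least 1 match and 12.7% hold 2 or more, so a match is common. Counted per gene, 40.6% of the 27305 genes with a window hold a match in at least 1 of theirs; of the 20 AhR list genes, 17 had a window and 13 of these a match. CYP1B1 was among the list genes without a window, so its promoter was not analysed here. These matches are descriptions of the letters and not binding sites.

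ALDH1A3 (chromosome 15, 100879831 to 100916626, hg38) stood at 242.6, 250.4, 257.7 and 247.9 CPM in the auxin libraries, against 149.9, 138.0, 179.8 and 148.3 CPM in the vehicle libraries. The groups did not overlap, and the outlying auxin library lay with the other 3. The means were 249.7 ± 6.28 CPM with auxin and 154.0 ± 17.96 CPM with vehicle (SD, n = 4 each). Fold changes are auxin over vehicle on the log2 scale, and that of ALDH1A3 was 0.70 ± 0.09 (SE) with an edgeR adjusted p of 0.000233. Without auxin replicate 1 it was 0.71 ± 0.09 (edgeR adjusted p 7.69e-06).

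CYP1B1 (chromosome 2, 38067509 to 38076151) had 49.5, 36.5, 36.0 and 38.0 CPM with auxin and 19.0, 20.5, 21.8 and 20.3 CPM with vehicle. Every auxin library was above every vehicle library, and auxin replicate 1 was the highest. Its log2 fold change was 0.93 ± 0.15 (edgeR adjusted p 0.00212), and 0.85 ± 0.15 (edgeR adjusted p 0.00541) without that library. With only the 8 compared libraries in the fit, no gene passed: ALDH1A3 and CYP1B1 both had an adjusted p of 0.868. The fit over all 32 libraries borrows its spread from the other groups.

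These counts stand against a low background. In total reads 0.0179% of the 11186 genes tested passed an edgeR adjusted p of 0.05, and 0.0266% of 11258 without auxin replicate 1. At an unadjusted p under 0.05 there were 1775 genes, 1349 higher and 426 lower, with all libraries. Without auxin replicate 1 there were 690, 386 higher and 304 lower. DESeq2 called 269 genes where edgeR called 2, and edgeR called 198, 169 and 828 when auxin replicate 2, 3 or 4 was left out, with replicate 1 kept. Of the 1775, 425 were also under that limit without the library. The fold changes of 95.1% of genes lay within 0.5 (log2) of 0 without that library, and of 86.1% with it.

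The other AhR genes gave values that did not pass. Of the 20 listed, 16 were measured and 14 tested; 2 rose, none fell, and the median log2 fold change was 0.11, against 0.01 over all genes. Without auxin replicate 1, 15 were tested, 2 rose, none fell, and the median was 0.17, against 0.00 over all genes. AHRR, CYP1A2, UGT1A6 and SERPINB2 were not among the measured genes, ALDH3A1 stayed below the filter on low counts, and ABCG2 passed it only without auxin replicate 1. This list was chosen with earlier results for some of its genes known.

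CYP1A1 (chromosome 15, 74719542 to 74725528), a cytochrome P450 enzyme, was scarce, at 2.54, 7.60, 4.99 and 9.25 CPM with auxin and 2.98, 3.75, 3.88 and 4.48 CPM with vehicle. Auxin replicates 2 to 4 were above all vehicle libraries and replicate 1 was below all of them. Its log2 fold change was 0.81 ± 0.32 (edgeR adjusted p 0.216), and 0.93 ± 0.32 (edgeR adjusted p 0.610) without replicate 1.

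TIPARP, an AhR-induced ADP-ribosyltransferase that represses the receptor, had 14.0, 49.8, 38.2 and 67.0 CPM with auxin and 39.7, 71.8, 46.6 and 34.1 CPM with vehicle. The groups overlapped, with a log2 fold change of -0.08 ± 0.33 (edgeR adjusted p 0.942) and 0.11 ± 0.34 (0.991) without auxin replicate 1. NQO1, a quinone reductase that answers to AhR and to NRF2, had 175.3, 338.3, 318.1 and 334.4 CPM with auxin and 297.5, 302.7, 286.2 and 286.6 CPM with vehicle. Auxin replicate 1 was the lowest of the 8 and the other 3 auxin libraries were the highest. Its log2 fold change was 0.01 with all libraries and 0.17 ± 0.08 (unadjusted p 0.0288, edgeR adjusted p 0.776) without replicate 1. AHR itself stood at 0.58 (edgeR adjusted p 0.464) and ARNT, its partner, at 0.01 (0.995), against 0.39 (0.970) and 0.02 (0.999) without that library.

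**Figure D2:**
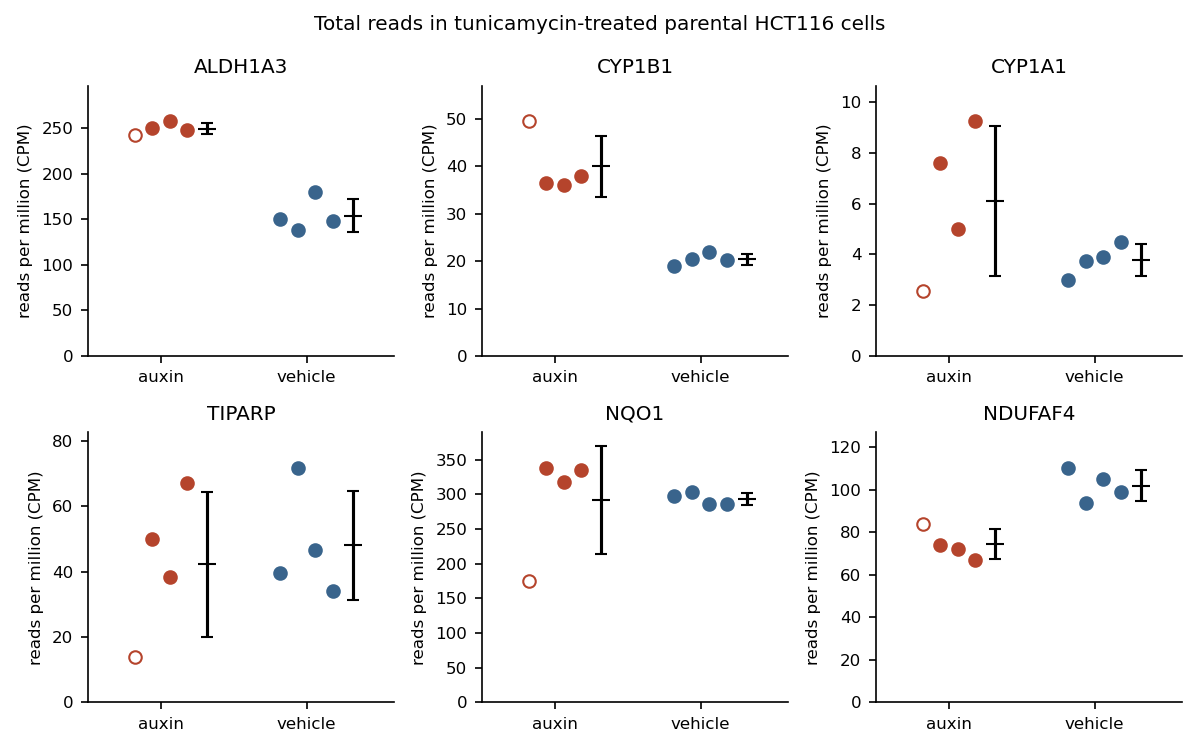
Total reads in CPM of ALDH1A3, CYP1B1, CYP1A1, TIPARP, NQO1 and NDUFAF4 in each library (points), with the mean and SD of each group; the open point is auxin replicate 1. ALDH1A3, CYP1B1 and NDUFAF4 do not overlap between the groups, while TIPARP does.

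NDUFAF4 (chromosome 6, 96889315 to 96897891) had 83.8, 73.9, 72.3 and 67.0 CPM with auxin and 110.3, 93.8, 104.8 and 98.8 CPM with vehicle. All auxin libraries were below all vehicle libraries. Its log2 fold change was -0.47 ± 0.10 (edgeR adjusted p 0.103) with all libraries and -0.52 ± 0.09 (edgeR adjusted p 0.0107) without auxin replicate 1, so it passed only then.

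Among the genes next in order by p, none passed. MCM10, a DNA replication initiation factor, had 71.1, 99.99, 94.8 and 96.0 CPM with auxin and 140.1, 116.1, 140.9 and 119.6 CPM with vehicle. The groups did not overlap, at a log2 fold change of -0.49 ± 0.10 (edgeR adjusted p 0.103) and -0.41 ± 0.09 (0.120) without auxin replicate 1. HDAC7, a class IIa histone deacetylase, had 344.2, 201.5, 165.1 and 113.2 CPM with auxin and 116.4, 93.2, 116.2 and 101.1 CPM with vehicle, and its groups overlapped through auxin replicate 4. It stood at 0.91 ± 0.19 (edgeR adjusted p 0.103), and at 0.59 ± 0.14 (0.268) without replicate 1.

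MRPL4, a mitochondrial ribosomal protein, stood at a log2 fold change of -0.44 (edgeR adjusted p 0.183), and at -0.29 ± 0.09 (0.472) without auxin replicate 1. HPCAL1, a neuronal calcium sensor family protein, stood at 0.45 (edgeR adjusted p 0.100) and TSPAN4, a tetraspanin, at -0.59 (0.112) without auxin replicate 1. With all libraries HPCAL1 stood at 0.31 (0.216) and TSPAN4 at -0.25 (0.543).

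The study gave auxin in 3 further settings, each with its own DMSO controls, so the same genes can be set side by side without shared libraries. In total reads, 801 genes (7.16% of those tested) passed with auxin in unstressed parental cells, 2 (0.0179%) in stressed tagged cells and 76 (0.679%) in unstressed tagged cells. Without auxin replicate 1 of the stressed parental cells, which enters the shared estimate of the spread, the counts were 2805 (24.9%), 283 (2.51%) and 1795 (15.9%).

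ALDH1A3 rose in all 4 settings. Its mean was 249.7 CPM with auxin and 154.0 CPM with vehicle in stressed parental cells, 263.2 CPM with auxin and 172.6 CPM with vehicle in unstressed parental cells, 312.5 CPM with auxin and 205.7 CPM with vehicle in stressed tagged cells, and 313.3 CPM with auxin and 204.1 CPM with vehicle in unstressed tagged cells. The log2 fold changes in the 3 further settings were 0.61 ± 0.09, 0.60 ± 0.09 and 0.62 ± 0.09 (edgeR adjusted p 0.00148, 0.00334 and 0.00220 in that order). CYP1B1 rose by 0.68 ± 0.14, 0.80 ± 0.15 and 0.69 ± 0.15 in the same settings (edgeR adjusted p 0.00902, 0.0344 and 0.0353).

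The size of these rises was compared directly. The ALDH1A3 log2 fold change in stressed minus that in unstressed parental cells was 0.09 ± 0.13 (edgeR adjusted p 0.670), and parental minus tagged under stress was 0.10 ± 0.13 (0.675). For CYP1B1 the differences were 0.25 ± 0.20 (edgeR adjusted p 0.421) and 0.13 ± 0.21 (0.724). None of these differences passed, which does not show that the responses were equal.

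CYP1A1 averaged 6.09 ± 2.95 CPM with auxin and 3.77 ± 0.62 CPM with vehicle in stressed parental cells, against 7.32 ± 1.11 CPM with auxin and 1.49 ± 1.01 CPM with vehicle in unstressed tagged cells (SD, n = 4 each). When all libraries were used it passed in unstressed tagged cells alone, at 2.31 ± 0.38 (edgeR adjusted p 0.00551), and also in stressed tagged cells without auxin replicate 1 of the stressed parental cells, at 1.42 ± 0.33 (0.0257). The difference between parental and tagged cells under stress was -0.62 ± 0.46 (edgeR adjusted p 0.413) with all libraries. TIPARP rose in unstressed parental cells by 1.17 ± 0.34 (edgeR adjusted p 0.0346), and its difference, stressed minus unstressed parental cells, was -1.25 ± 0.47 (0.104). In stressed and unstressed tagged cells TIPARP stood at 0.93 ± 0.34 (edgeR adjusted p 0.291) and 1.23 ± 0.34 (0.0634). Without auxin replicate 1 of the stressed parental cells it passed in unstressed tagged cells, at 1.24 ± 0.33 (0.0171).

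NDUFAF4 fell in unstressed parental cells too, at -0.50 ± 0.10 (edgeR adjusted p 0.00611). It stood at -0.10 ± 0.10 (edgeR adjusted p 0.653) in stressed tagged cells and at -0.28 ± 0.10 (0.103) in unstressed tagged cells. In the fit without auxin replicate 1 of the stressed parental cells, NDUFAF4 also passed in unstressed tagged cells, at -0.28 ± 0.09 (edgeR adjusted p 0.0266). Stressed tagged cells stood at -0.11 ± 0.09 (0.440) in that fit. The difference between parental and tagged cells under stress was -0.37 ± 0.14 (edgeR adjusted p 0.166).

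**Figure D3:**
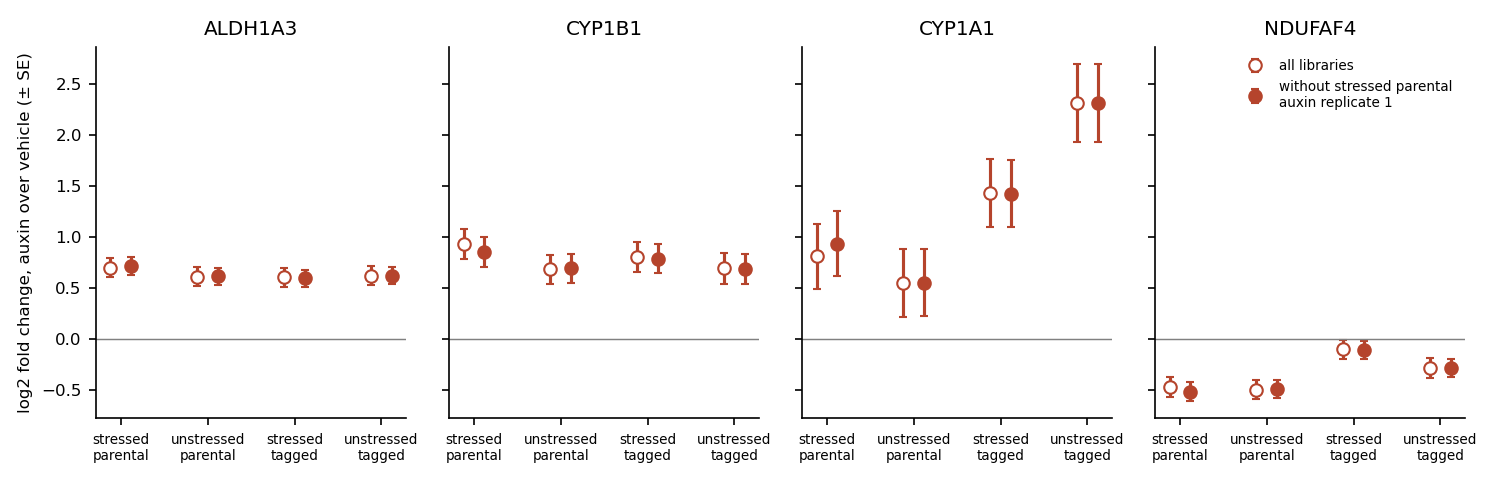
Log2 fold changes (auxin over vehicle, ± SE, total reads) of ALDH1A3, CYP1B1, CYP1A1 and NDUFAF4 in the 4 settings, with all libraries (open) and without auxin replicate 1 of the stressed parental cells (filled). ALDH1A3 lies between 0.59 and 0.71 throughout, while CYP1A1 is highest in unstressed tagged cells.

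Across all genes, 1 passed the test of a different auxin response in stressed and unstressed parental cells, 0.00894% of those tested, and again 1, 0.00888%, without auxin replicate 1. At an unadjusted p under 0.05 there were 3201 and 2283. The gene was ZNF227, a zinc finger protein, at -3.67 ± 0.64 (log2, edgeR adjusted p 0.0347), and -3.56 ± 0.62 (0.0148) without replicate 1. It was scarce: 4.04 ± 1.93 CPM with auxin and 8.09 ± 5.12 CPM with vehicle under stress, and 7.79 ± 3.44 CPM with auxin and 1.05 ± 0.57 CPM with vehicle unstressed (SD, n = 4 each). No gene passed without auxin replicate 3 or vehicle replicate 2, while 654 and 2307 did without auxin replicates 2 and 4, with replicate 1 kept. With the main axis of within-group variation as a covariate no gene passed in edgeR, with or without auxin replicate 1 (343 and 488 at an unadjusted p under 0.05 with and without it), and ZNF227 stood at -2.17 and -2.14 (edgeR adjusted p 0.9999 and 1.0). Library scores on that axis also carried differences between groups. In unstressed parental cells they ran from -0.132 to 1.965 with vehicle and from -1 to 0.022 with auxin. The covariate can therefore take up part of the difference tested, and the lost call cannot be put down to within-group variation alone. Within stressed parental cells the ZNF227 fold change did not pass (-0.83 ± 0.41, edgeR adjusted p 0.315).

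For parental minus tagged cells under stress no gene passed, 0.0% with or without auxin replicate 1. In edgeR 2430 and 1633 genes had an unadjusted p under 0.05. DESeq2 called 94 and limma voom with sample weights 219 in this comparison, and edgeR called 1045 without auxin replicate 4.

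Labelled reads, which the method takes to come from RNA made in the last 2 h, gave other genes. Every library of the series received s4U, so the part of the labelled reads that is background could not be measured. With all libraries 1 of 8980 genes (0.0111%) passed and 608 had an unadjusted p under 0.05. Without auxin replicate 1, 3 of 9177 (0.0327%) passed and 477 were under that limit. GRIPAP1 was higher, and NOP14 and MRTO4 were lower. No gene passed without auxin replicate 2 or 3 or without vehicle replicate 1, 2 or 4, and 3 did without auxin replicate 4.

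NOP14, a ribosome biogenesis factor of the small subunit (chromosome 4, 2937936 to 2963406), had 143.0, 150.8, 168.8 and 131.6 labelled CPM (labelled reads scaled by their own library totals) with auxin and 282.9, 212.9, 324.9 and 225.7 with vehicle. All auxin libraries were below all vehicle libraries. The log2 fold change of labelled reads was -0.78 ± 0.17 (edgeR adjusted p 0.0400) without auxin replicate 1, and -0.79 ± 0.18 (0.108) with it, where the library gave 11 labelled reads. The labelled share of NOP14 averaged 8.59% ± 1.01 with auxin and 13.3% ± 1.37 with vehicle (SD, n = 4 each), and did not pass. Total reads of NOP14 stood at -0.14 ± 0.09 (edgeR adjusted p 0.893) without replicate 1.

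MRTO4, which acts in assembly of the large ribosomal subunit, had 506.9, 126.2, 187.2 and 140.7 labelled CPM with auxin and 272.7, 181.5, 340.9 and 274.1 with vehicle. Auxin replicate 1 was the highest of the 8, and the groups overlapped also without it. Labelled MRTO4 stood at -0.81 ± 0.18 (edgeR adjusted p 0.0400) without replicate 1 and -0.47 ± 0.23 (0.732) with it.

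GRIPAP1, a protein of endosomal recycling (chromosome X, 48973723 to 49002264), had 195.0, 222.2, 160.8 and 65.8 labelled CPM with auxin and 46.8, 39.0, 80.1 and 50.9 with vehicle. Auxin replicate 4 lay within the vehicle range. The log2 fold change was 1.53 ± 0.29 (edgeR adjusted p 0.0136), and 1.48 ± 0.28 (0.00672) without auxin replicate 1. It lost the call without auxin replicate 2 (adjusted p 0.373), without auxin replicate 3 (0.0886) and without vehicle replicates 1, 2 or 4 (0.131, 0.123 and 0.0950). In the other 3 settings, from the fit without auxin replicate 1, its labelled log2 fold changes were -0.04, 0.02 and 0.17, none of which passed.

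**Figure D4:**
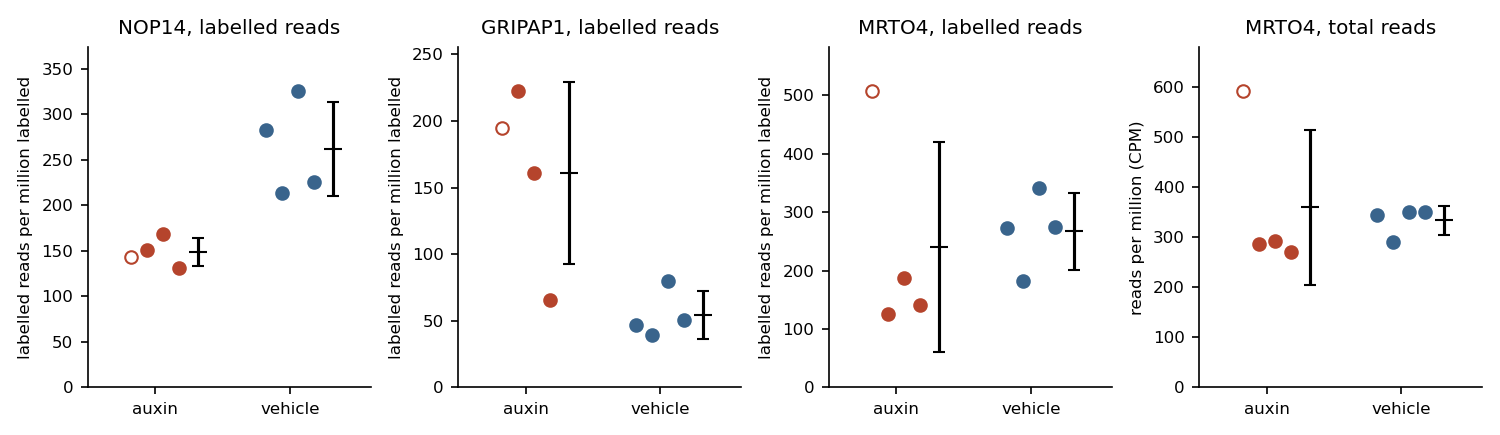
Labelled CPM of NOP14, GRIPAP1 and MRTO4, and total reads of MRTO4 in CPM, in each library (points), with the mean and SD of each group; the open point is auxin replicate 1. NOP14 does not overlap between the groups, and auxin replicate 1 is the highest library in both MRTO4 panels.

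The genes that rose in total reads gave few labelled reads. ALDH1A3 had 4, 12, 24 and 17 labelled reads with auxin and 24, 32, 18 and 19 with vehicle. Its labelled share averaged 1.96% ± 0.489 with auxin and 3.02% ± 1.06 with vehicle (SD, n = 4 each), against 10.9% ± 1.41 with auxin and 11.8% ± 0.739 with vehicle over all reads of a library. Labelled ALDH1A3 reads stood at 0.20 ± 0.34 (log2, edgeR adjusted p 0.954). The background part of so low a labelled share could not be measured. CYP1B1 had a higher labelled share, 20.8% ± 5.99 with auxin and 24.3% ± 4.78 with vehicle. Its labelled reads stood at 0.77 ± 0.29 (unadjusted p 0.0106, edgeR adjusted p 0.590), and its groups overlapped by 1 library.

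For the labelled share, no gene passed, 0.0% of 8980 genes and 0.0% of 9177 without auxin replicate 1. In edgeR 480 and 453 genes had an unadjusted p under 0.05, the smallest adjusted p values were 0.803 and 0.245, and limma on log2 ratios also called 0 genes. This test compared a gene's labelled with its unlabelled reads, relative to the typical gene. Left uncentred, the median log2 change of that ratio over the genes was -0.109 with all libraries.

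Library-wide labelling was tested on the 8 libraries with 2 exact permutation tests, 2-sided. Labelled reads made up 10.9% ± 1.41 of reads with auxin and 11.8% ± 0.739 with vehicle (SD, n = 4 each; exact p 0.371, adjusted over both tests 0.371). Conversions were found at 0.753% ± 0.0294 of covered T positions with auxin and 0.806% ± 0.0424 with vehicle (n = 4 each; exact p 0.114, adjusted 0.229). The smallest p that 4 against 4 allows is 0.0286. Without auxin replicate 1 the differences were -0.273 points (exact p 0.714) and -0.0631 points (exact p 0.0857). The labelled percentage also moved with the replicate number: replicates 2 and 4 were above replicates 1 and 3 in all 4 stressed groups of the series, and below them in all 4 unstressed groups. Conversions were lower with auxin in 4 of 4 same-numbered pairs of libraries and the labelled percentage in 3 of 4.

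A further measure, looked at after the values were seen and not tested, separated the groups. Labelled reads carried 1.33, 1.47, 1.47 and 1.46 conversions each in the auxin libraries and 1.54, 1.54, 1.53 and 1.52 in the vehicle libraries. In stressed tagged cells the range was 1.53 to 1.56 with auxin and 1.61 to 1.65 with vehicle. Unstressed groups were higher, at 1.79 to 1.84 with auxin and 1.82 to 1.90 with vehicle in parental cells, where the groups overlapped, and 1.89 to 1.93 with auxin and 1.91 to 1.99 with vehicle in tagged cells, where they overlapped too.

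Stress response genes gave no call with auxin in edgeR with all libraries or without auxin replicate 1. HSPA5, the main ER chaperone, had 4552, 4758, 4353 and 4480 CPM with auxin and 4290, 4396, 4024 and 4683 CPM with vehicle, at a log2 fold change of 0.06 (edgeR adjusted p 0.827), and 0.06 (0.979) without auxin replicate 1. DDIT3, the transcription factor CHOP, had 495.3, 969.8, 937.7 and 944.0 CPM with auxin and 883.7, 891.1, 761.5 and 916.4 CPM with vehicle. Auxin replicate 1 was the lowest of the 8 and the other 3 auxin libraries were the highest, at -0.04 (edgeR adjusted p 0.948) with it and 0.14 (0.954) without it.

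SDF2L1, an ER protein of the HSPA5 complex, had 3886, 966.5, 1016 and 887 CPM with auxin and 835.1, 768.9, 1024 and 1031 CPM with vehicle. Its log2 fold change was 0.88 with all libraries (edgeR adjusted p 0.194) and 0.07 without auxin replicate 1, and neither passed. Among 19 alternatives for total reads, SDF2L1 passed in 1. XBP1, ATF4, HERPUD1, TRIB3, CHAC1 and DNAJB9 lay between -0.11 and 0.14 without auxin replicate 1, and none passed in either fit.

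IGF2BP3, which carries no tag here, had 235.0, 160.8, 164.3 and 173.0 CPM with auxin and 147.6, 163.4, 154.5 and 168.2 CPM with vehicle. The groups overlapped, and auxin replicate 1 was the highest. The log2 fold change was 0.19 (edgeR adjusted p 0.387), and 0.07 ± 0.09 (0.977) without that library. IGF2BP2 stood at 0.21 (edgeR adjusted p 0.421) and -0.02 (0.999), and IGF2BP1 stayed below the filter.

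With 0.0179% of all genes called, and 0.0266% without auxin replicate 1, few calls could fall on any list. In both fits 0 members rose and 0 fell in 26 of the 27 gene lists, and the AhR genes held the calls given above. The blood and endothelial markers are among the 26, but 0 of them were tested, so that list could give no call. As the AhR list was chosen with earlier results for some of its genes known, its calls and median are not independent of these data. Medians of log2 fold changes without auxin replicate 1 ran from -0.12 for the 65 tested nuclear genes of oxidative phosphorylation to 0.17 for the AhR genes, against 0.00 over all genes. The median was -0.12 for 33 DNA replication genes, -0.10 for 78 cytosolic ribosomal proteins and -0.10 for 30 proteasome subunits. Of the ribosomal protein genes 17 of 78 and of the oxidative phosphorylation genes 11 of 65 were above 0, and none passed. The median over all genes was 0.00. Over genes with a mean of at least 20 CPM, fold changes correlated with the length of the counted region. The Spearman correlation was 0.156 without auxin replicate 1 and 0.106 with it. Correlations with the T fraction of the region were -0.085 and -0.382 in the same order. Whether either bears on these list medians was not tested. COX6C, a subunit of cytochrome oxidase, stood at -0.29 ± 0.09 (edgeR adjusted p 0.472) without auxin replicate 1, RPL5, a large-subunit ribosomal protein, at -0.24 ± 0.08 (0.610) and PCNA, the sliding clamp of DNA replication, at -0.34 ± 0.10 (0.472). NDRG1, a stress and hypoxia gene, stood at 0.48 ± 0.10 (0.107) and JUN, an immediate-early transcription factor, at 0.54 ± 0.17 (0.472). With all libraries these 5 genes stood at -0.51, -0.52, -0.61, 0.32 and 0.67 in the same order (edgeR adjusted p 0.183, 0.213, 0.198, 0.264 and 0.171).

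The ER stress lists had medians near 0 without auxin replicate 1: 0.05 for 30 ER chaperones and folding enzymes, 0.04 for 22 genes of ER-associated degradation, 0.02 for 41 ATF4 and CHOP targets and 0.07 for 13 sensors and regulators of the response. With all libraries the medians of several lists moved, as for glycolysis and hypoxia genes (0.16, against -0.04 without the library) and mitosis genes (-0.22, against -0.04). The parts of the ubiquitin ligase that OsTIR1 uses had a median of -0.32 with all libraries and -0.11 without auxin replicate 1, and none of the 9 tested passed.

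**Figure D5:**
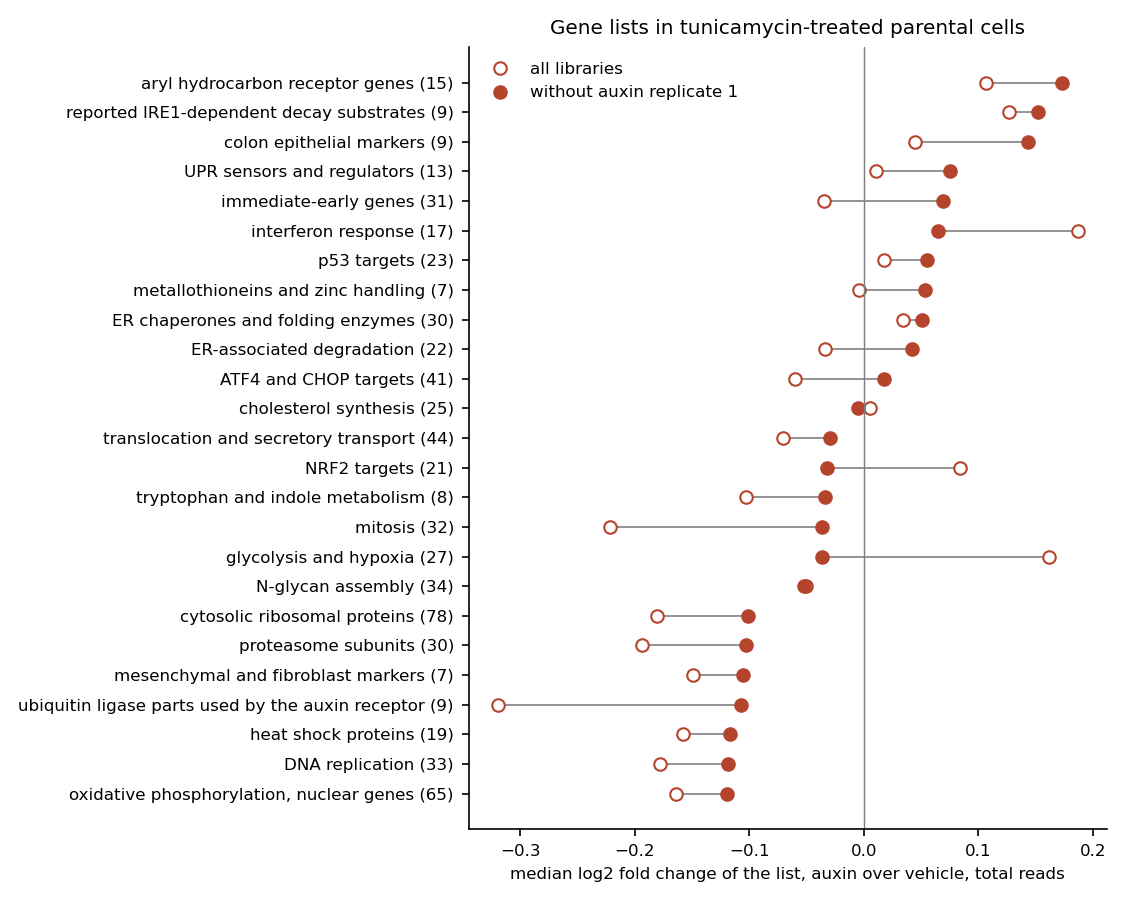
Median log2 fold change of each gene list (auxin over vehicle, total reads), with the number of genes tested in brackets, with all libraries (open) and without auxin replicate 1 (filled). The AhR genes, chosen with earlier results for some of them known, are highest without that library, at 0.17. The lists of glycolysis and hypoxia, NRF2 and immediate-early genes are among those that change sign with it.

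Marker levels were summed over the measured members of each list, which describes the cells and does not settle the cell type. The summed level of the colon epithelial markers was 1837 to 2476 CPM with auxin and 2202 to 2391 CPM with vehicle, with 9 of 16 tested. Of these 16, CDX1, VIL1, CEACAM5, LGALS4, TFF3 and MUC2 were not among the measured genes. Mesenchymal and fibroblast markers summed to 65.6 to 71.9 CPM with auxin and 56.9 to 69.9 CPM with vehicle, with 10 of 17 not measured. Blood and endothelial markers summed to 0 to 0.301 CPM with auxin and 0.224 to 2.53 CPM with vehicle, with 8 of 10 not measured.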

How the data were processed

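Per the file headers, each deposited table gives counts for every transcript, as Slamdunk writes them: reads, reads with T-to-C conversions, covered T positions and conversions. The authors' CPM values, their conversion rates as a fraction, and the other columns per the file headers were not used. Per the submitters' processing notes the build was hg38; the Slamdunk version, its thresholds and the conversions needed for a labelled read are not given in the sources used here. Per the labels' protocols, libraries were QuantSeq 3′-end single reads.

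Transcripts were matched to RefSeq symbols (GRCh38.p14): 40006 of 40767 curated and 6326 of 33066 predicted identifiers matched, and 0 of 21749 others. Unmatched rows held 37.2% to 43.5% of the counts of the 8 libraries and were left out. For each of 18829 genes the transcript with the most reads was kept, because 52.9% of the genes had several, which can share reads; 72 genes with counts identical to another gene's were dropped.

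Total and labelled reads were tested in R 4.3.3 with edgeR 4.0.16 (TMM, filterByExpr, 1 coefficient per group over all 32 libraries, robust quasi-likelihood F-test, Benjamini-Hochberg adjustment over all genes tested, threshold 0.05). For the share, each library entered as 2 columns, its labelled and its unlabelled reads, and had its own term. DESeq2 1.42.0 and limma 3.58.1 were alternatives. CPM used TMM-scaled library sizes, except the summed marker levels, which used the unscaled totals of reads in named genes. The strand setting of the counting is not given in the sources used here, so overlapping and antisense genes may share reads. The 8 libraries held 0.987 M to 6.98 M reads in named genes, and 95% Wilson intervals of their labelled percentages (8.82% to 8.93% in the shallowest) cover counting error only. All replicate pairs differed beyond sampling noise.

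In simulated data with the depths of these libraries, every gene was given 1 common dispersion (spread between libraries) of 0.0158, estimated without auxin replicate 1. The simulated libraries thus lacked the spread that auxin replicate 1 adds, and their recoveries do not describe real fits that include it. There, edgeR's test of total reads over 11031 genes recovered 99% of genes changed by 1 on the log2 scale. It recovered 37% of those changed by 0.5. Over 8980 genes edgeR recovered 78% and 14% for the labelled share at the settings of 1 and 0.5. For labelled reads it recovered 41% and 4% at these settings. The median absolute log2 fold changes of the changed genes in labelled reads were smaller than the settings, at 0.8 and 0.38. The 41% and 4% are therefore not recoveries of labelled reads changed by 1 and 0.5.

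Members and lists were chosen with earlier results of these data known. Named genes were those past the threshold with at least 5 CPM (20 labelled reads per library for the share) and no overlap between groups, filled to 3 per direction by smallest p, with every measured AhR gene, a panel of stress genes and IGF2BP genes, up to 4 genes per list, and the smallest p in each difference of auxin effects; of these the text gives a selection. GRIPAP1 and MRTO4 passed the threshold and overlapped. Library-wide percentages were compared with exact permutation tests over the 8 libraries. Alternatives were other scalings, filters, tools and gene regions, the compared libraries alone, a replicate block, a covariate and leaving out each library.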

Additional observations from a re-analysis of the deposited data

Results flagged for a closer look

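Auxin replicate 1 of the stressed parental cells lay far from the other 3 auxin libraries in 5 library measures. It covered 15.1 T positions per read, carried 1.33 conversions per labelled read, detected 11207 genes, gave 9.97% of its reads to its 10 most abundant genes and had 43.5% of its counts in unnamed transcripts. Among genes, it lay far above the other auxin libraries for CYP1B1 (49.5 CPM), MRTO4 (591.9 CPM, and 506.9 labelled CPM), IGF2BP2 (562.6 CPM), IGF2BP3 (235.0 CPM), SDF2L1 (3886 CPM), KCTD20 (293.4 CPM) and PLXDC1 (240.0 CPM), and far below them for NQO1 (175.3 CPM) and DDIT3 (495.3 CPM). PLXDC1 had 1.82, 1.94 and 2.75 CPM in the other auxin libraries.

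Vehicle replicate 2 lay apart from the other vehicle libraries in the share of its 10 most abundant genes (4.95%), HPCAL1 (199.5 CPM), MRTO4 (290.4 CPM) and ZNF227 (15.7 CPM). Vehicle replicate 1 did for TSPAN4 (107.5 CPM) and vehicle replicate 4 for PLXDC1 (5.50 CPM). Each was judged by its gap to the nearest library against the range of its group of 4, over 90 such groups, and chance marks about 1 in 20 groups.

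The auxin response of ZNF227 differed between stressed and unstressed parental cells by -3.67 on the log2 scale in a test of the difference itself, with vehicle replicate 2 as the highest stressed library; without that library the difference was -3.11 (edgeR adjusted p 0.131).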

How the results depend on the processing

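Low labelled counts limited single-gene readings (4 to 32 labelled reads per library for ALDH1A3), and counts of calls moved with the libraries and tool used. In total reads 2 genes passed; DESeq2 called 269 (250 higher, 19 lower), limma voom with sample weights 8, the fit on the compared libraries 0, and 1 without auxin replicate 1. A covariate for the main axis of within-group variation gave 6 calls, and 41 without auxin replicate 1. Leaving out 1 library at a time gave 2 to 828 calls: 3 without auxin replicate 1, 198, 169 and 828 without auxin replicates 2, 3 and 4, and 2 without each vehicle library in turn.

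ALDH1A3 passed in 18 of 19 alternatives and CYP1B1 in 17, with log2 fold changes of 0.65 to 0.78 and 0.82 to 0.97 and adjusted p up to 0.868. NDUFAF4 passed in 9 of 19. In labelled reads, 1 gene passed; DESeq2 called 3, the fit on the compared libraries 0, or 4 without auxin replicate 1, scaling by total reads 2, and leaving out 1 library 0 to 3. The labelled share gave 0 calls under every alternative run.

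For the difference between stressed and unstressed parental cells 1 gene passed, and leaving out 1 library gave 0 to 2307 calls (654 without auxin replicate 2, 2307 without replicate 4). For parental minus tagged cells none passed, and leaving out 1 library gave 0 to 1045. DESeq2 and voom, added for these differences after the data were seen, gave 954 and 334 calls for the first and 94 and 219 for the second. The covariate, also added then, gave 0 edgeR calls for both (343 and 577 genes at an unadjusted p under 0.05), and without auxin replicate 1 it gave 0 for the first and 3 for the second. Its scores also carry differences between groups, so it can take up part of the differences tested. Conversions per covered T position differed by -0.0748 points over all transcripts of the files, and by -0.0398 to -0.0701 with 1 library left out, with an unadjusted exact p of 0.0286 in the first case and without vehicle replicate 3. The cause was not tested.

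Gene-level deviations of same-numbered libraries from their group means correlated at 0.096, 0.395, -0.094 and -0.361. The auxin mean included outlying replicate 1, so these values cannot decide whether the numbers pair the samples. The main fits did not pair them, although the labelled percentage moved with the replicate number. With the replicate block total reads gave 2 calls, or 4 without auxin replicate 1, labelled reads 1, the share 0, and the differences 1 and 0. Exact tests within same-numbered pairs, whose smallest p is 0.125, gave 0.250 for the labelled percentage (-0.944 points) and 0.125 for the conversions (-0.0534).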
